A study of Homo sapiens with 6 samples.

Results

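The BCL2 family controls the step at which a cell commits to mitochondrial apoptosis, and 10 of its genes were followed here in HCT116 cells after siRNA against STRIP2. The members were taken by symbol: the guardians BCL2, BCL2L1 and MCL1, the effectors BAX and BAK1, and the BH3-only genes BBC3, PMAIP1, BCL2L11, BID and BIK. Each symbol matched 1 row of the deposited table, so that 10 of 61806 genes were members, and all 10 were among the 15687 genes with enough counts to be tested. HCT116 is a human colorectal carcinoma line. All libraries came from this single line, grown in McCoy's 5A medium with serum and antibiotics. RNA sequencing was done on 3 libraries of cells given a control siRNA (si-NC, labelled wildtype) and 3 of cells given the siRNA against STRIP2 (si-STRIP2, labelled STRIP2 knockdown). STRIP2 encodes a protein of the STRIPAK signalling complex. LCN2 and ferroptosis are named in the series title, and the comparison asks which transcripts differed between the groups. The time after transfection and the siRNA sequence are not given in the sources used here. Whether the 3 libraries of each group are separate cultures is not in the labels, so the p-values measure the spread between these libraries, which may be technical.

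Effectors of this family form pores in the outer mitochondrial membrane, through which cytochrome c leaves to start the caspases. Guardians hold the effectors, and the BH3-only proteins, in check by binding their BH3 helix in a groove. BH3-only proteins are the stress sensors: they fill the groove of the guardians, and some of them also activate the effectors directly. Several members are classic transcriptional targets, such as BCL2L11 of FOXO and stress kinase signalling, so their mRNA level is itself part of how the pathway is set.

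The total count per library lay between 17184963 and 21721218. STRIP2 itself had a mean FPKM (counts scaled to exonic length and library total) of 3.59 ± 0.347 (SD, n = 3) with si-NC against 2.61 ± 0.0929 with si-STRIP2, which left 72.6% of the transcript. The loss was thus partial, a log2 difference of -0.46 (edgeR adjusted p = 1.62e-05). Of all tested genes, 25.4% had a larger change in either direction, BCL2L11 and PMAIP1 among them. Mitochondrial genes held 4.88% to 8.88% of counts in si-NC and 5.73% to 6.30% in si-STRIP2. Of 8 colorectal epithelial markers, EPCAM, CDH1, KRT8, KRT18 and KRT19 had enough counts to be tested. Of these, 3 fell, 1 rose and 1 did not pass, where 27.0% of all tested genes fell and 27.8% rose. CDH1, the gene of E-cadherin, went from 36.6 ± 1.43 to 24.2 ± 0.318 FPKM (SD, n = 3), a log2 difference of -0.60 (edgeR adjusted p = 1.57e-14). The intestinal markers VIL1 and LGALS4 had group means of at most 0.0867 FPKM, and CDX1 had 0 counts in every library. None of the 5 leukocyte markers had enough counts to be tested. COL1A1 alone among 5 fibroblast markers was tested and did not pass (2.28 FPKM in si-NC and 2.04 in si-STRIP2, edgeR adjusted p = 0.0898). KDR alone among 4 endothelial markers was tested, and it fell from 0.343 ± 0.0379 to 0.160 ± 0.0265 FPKM (log2 difference -1.07, edgeR adjusted p = 0.000528). The part of these marker shifts in the results for the family was not tested.

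What all 10 proteins share is the BH3 core, a leucine followed by any 3 residues, a glycine or alanine, and an aspartate. This pattern of 6 residues was searched in the principal protein of each gene (APPRIS principal transcript, GENCODE release 29), and each of the 10 held it exactly 1 time. It is short, and 24.7% of 19660 human proteins hold it somewhere, so a match by itself does not make a family member. The coding sequences are shown because guardians bind the BH3 helix of effectors and BH3-only proteins in their groove. The 18 bases of the core are in capitals, with 15 bases on each side, 5′ to 3′ on the coding strand. The 3 guardians read:
BCL2: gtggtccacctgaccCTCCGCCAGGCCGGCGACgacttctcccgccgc
BCL2L1: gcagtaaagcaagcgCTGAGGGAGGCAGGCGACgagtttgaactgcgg
MCL1: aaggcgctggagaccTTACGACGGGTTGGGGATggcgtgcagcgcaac
The 2 effectors read:
BAX: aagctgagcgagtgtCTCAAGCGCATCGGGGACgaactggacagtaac
BAK1: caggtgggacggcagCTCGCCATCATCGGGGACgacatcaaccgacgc
The 5 BH3-only genes read:
BBC3: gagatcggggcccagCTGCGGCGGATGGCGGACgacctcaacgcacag
PMAIP1: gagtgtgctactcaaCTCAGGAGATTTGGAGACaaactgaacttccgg
BCL2L11: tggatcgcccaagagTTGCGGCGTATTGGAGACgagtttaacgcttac
BID: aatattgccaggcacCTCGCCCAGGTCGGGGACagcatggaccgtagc
BIK: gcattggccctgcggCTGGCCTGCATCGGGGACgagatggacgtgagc

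The core of BBC3 is the only one of the 10 with alanine in place of glycine. On GRCh38 the core of BCL2L11 lies in exon 4 on chromosome 2 (111150103 to 111150120, plus strand). That of PMAIP1 lies in exon 2 on chromosome 18 (59902673 to 59902690, plus strand), and that of BBC3 in exon 3 on chromosome 19 (47226591 to 47226608, minus strand). Their proteins differ in size, from 54 residues for PMAIP1 to 350 for MCL1. Counts were made per gene and do not separate splice forms. GENCODE 29 gives BCL2L11 13 distinct complete proteins, 8 of which hold the core, and BCL2L1 2, both with the core.

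Of the 10 members, 7 passed the test between si-STRIP2 and si-NC (edgeR adjusted p under 0.05 over all genes tested), 5 lower and 2 higher. Most genes moved in this experiment: 54.8% of all tested genes passed, 27.0% lower and 27.8% higher, so the count of members is near the background and is not a result about the family. By role, the members that fell were 3 BH3-only genes and 2 guardians, and both effectors rose. The median log2 fold change of the 10 members was -0.13, against 0.014 over all tested genes, and the median of its absolute value was 0.31 against 0.26. In bulk RNA, fewer cells with a transcript and less transcript per cell cannot be told apart. Only BCL2L11 and PMAIP1 passed a direct test for a change above 1.2-fold (edgeR glmTreat, 2 of 10 members against 23.7% of all genes). Not passing it does not show a smaller change: BAX was 1.31-fold higher (glmTreat adjusted p = 0.0547).

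**Figure D1:**
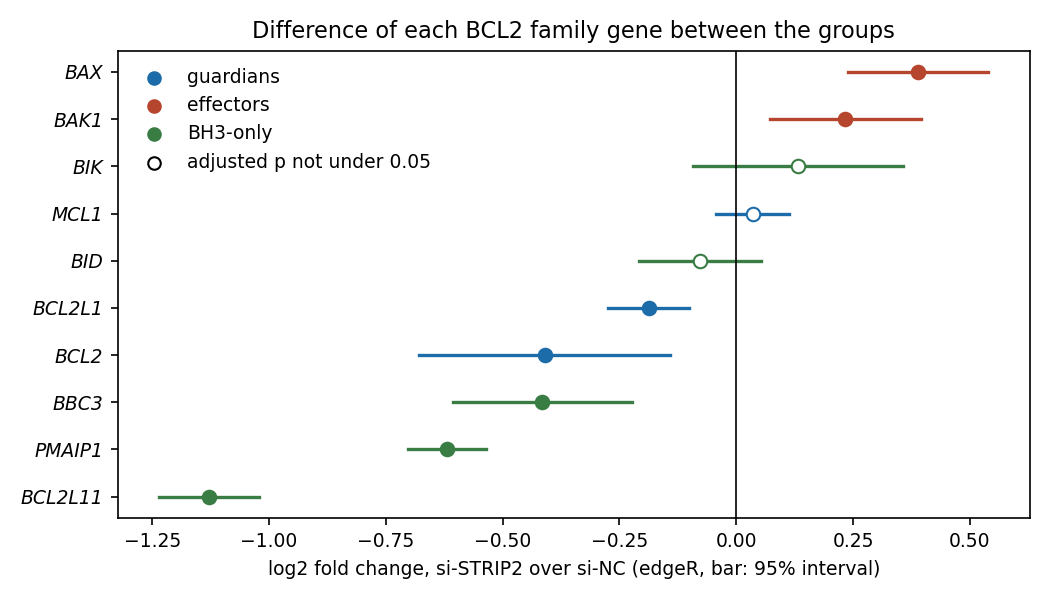
Log2 fold change of each of the 10 BCL2 family genes, si-STRIP2 over si-NC, with the 95% interval from edgeR as a bar and the class as colour. Open circles did not pass the test. BCL2L11 and PMAIP1 lie farthest to the left, and the effectors BAX and BAK1 farthest to the right.

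BCL2L11 encodes BIM, a BH3-only protein that binds every guardian and can activate BAX and BAK1 directly. It showed the largest change of the family. Its FPKM was 9.61, 9.60 and 9.45 in the si-NC libraries and 4.34, 4.41 and 4.41 in the si-STRIP2 libraries. Each group was tight, and the si-STRIP2 libraries all lay far below every si-NC library. The coefficients of variation, 0.938% in si-NC and 0.921% in si-STRIP2, are smaller than counting noise alone would usually give at these counts. The closeness of the libraries is therefore not a measure of precision. The mean fell from 9.55 ± 0.0896 to 4.39 ± 0.0404 FPKM (SD, n = 3), 45.9% of the control. In the model the log2 difference was -1.13 ± 0.053 (SE), a 2.19-fold lower level (edgeR adjusted p = 1.28e-18). Of all tested genes, 3.16% had a larger change in either direction. The raw counts behind these values were 1390, 1106 and 1081 in si-NC and 542, 513 and 505 in si-STRIP2.

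BCL2L11 (ENSG00000153094, chromosome 2, 111119378 to 111168445, plus strand) lies inside the long noncoding gene MIR4435-2HG on the other strand, which held 47.7% as many counts, and its start overlaps the end of ACOXL on the same strand, which held 8.06% as many. The kit marked strand, and whether counting used it is not given in the sources used here. Neither neighbour passed the test. MIR4435-2HG had a log2 fold change of -0.12 (edgeR adjusted p = 0.161) and ACOXL of -0.33 (edgeR adjusted p = 0.0846). Among the members, BCL2L11 was the only one with overlapping genes above 1% of its counts.

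PMAIP1 encodes NOXA, a small BH3-only protein that binds chiefly MCL1 and promotes its breakdown. It had the highest FPKM of the family in both groups, a rank that rests on its exonic length of 2186 bases. MCL1, with 6222 bases, had more raw counts in every library (5687 against 4470 in si-NC replicate 1). The FPKM of PMAIP1 was 94.14, 97.80 and 91.89 in si-NC and 60.78, 60.89 and 63.45 in si-STRIP2. The groups were far apart compared with the spread inside either. The mean fell from 94.6 ± 2.98 to 61.7 ± 1.51 FPKM (SD, n = 3), a log2 difference of -0.62 ± 0.041 (SE, edgeR adjusted p = 9.21e-15), a 1.54-fold lower level.

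BBC3 encodes PUMA, a BH3-only protein that binds every guardian and acts in the death response to DNA damage. Its FPKM was 5.03, 5.37 and 5.13 in si-NC and 4.26, 4.18 and 3.19 in si-STRIP2. All si-STRIP2 libraries were below all si-NC libraries, with si-STRIP2 replicate 3 the lowest. The log2 fold change was -0.42 ± 0.094 (SE, edgeR adjusted p = 0.000347). The spread of BBC3 within si-STRIP2 was the widest of the members there, with a coefficient of variation of 15.4%.

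The other 2 BH3-only genes did not pass. BID, which caspase-8 cuts to carry a death receptor signal to mitochondria, had 7.37, 7.10 and 6.91 FPKM in si-NC and 6.65, 6.56 and 7.13 in si-STRIP2. Its groups overlapped, and its log2 fold change of -0.078 had a 95% interval from -0.21 to 0.052 (edgeR adjusted p = 0.312). BIK, a BH3-only protein of the endoplasmic reticulum, had 7.84, 8.69 and 8.51 FPKM in si-NC and 9.07, 9.98 and 8.36 in si-STRIP2. The log2 fold change of BIK was 0.13, with an interval from -0.093 to 0.36 (edgeR adjusted p = 0.322). The interval of BIK is the wider of the pair and includes a rise as large as that of BAK1.

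The guardians differed among themselves. MCL1, a short-lived protein on which many epithelial tumour cells depend, had 42.08, 41.88 and 40.98 FPKM in si-NC and 42.48, 43.09 and 42.74 in si-STRIP2. The groups did not overlap, but the si-STRIP2 mean was 103% of the si-NC mean. With a log2 fold change of 0.035 and an interval from -0.044 to 0.11, MCL1 did not pass (edgeR adjusted p = 0.462). BCL2L1, which encodes BCL-XL, had 28.72, 29.14 and 27.22 FPKM in si-NC and 24.92, 24.48 and 25.50 in si-STRIP2. Every si-STRIP2 library was lower, and the log2 fold change was -0.19 ± 0.042 (SE, edgeR adjusted p = 0.000322), a 1.14-fold lower level.

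BCL2, the founding member of the family, was the lowest of the 10, at 0.61, 0.65 and 0.51 FPKM in si-NC and 0.40, 0.43 and 0.52 in si-STRIP2. The groups overlapped, since si-NC replicate 3 lay just below si-STRIP2 replicate 3. Its raw counts were 167, 141 and 111 in si-NC and 94, 94 and 112 in si-STRIP2, which limits the precision. The log2 fold change was -0.41 ± 0.13 (SE, edgeR adjusted p = 0.00888). This call was lost without si-STRIP2 replicate 1 (log2 fold change -0.32, edgeR adjusted p = 0.0634). Across 18 alternatives, the adjusted p of BCL2 lay between 0.00248 and 0.152, the highest from glmTreat, which tests for a change above 1.2-fold. Among the tests of any change the highest was 0.0934 (limma on log2(FPKM + 0.1)).

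Both effectors rose. BAX, which moves from the cytosol to mitochondria when activated, had 7.58, 7.84 and 6.91 FPKM in si-NC and 9.80, 10.21 and 9.34 in si-STRIP2. The lowest si-STRIP2 library lay well above the highest si-NC library. The mean rose from 7.44 ± 0.480 to 9.78 ± 0.435 FPKM (SD, n = 3), a log2 difference of 0.39 ± 0.074 (SE, edgeR adjusted p = 3.27e-05), a 1.31-fold higher level. BAK1, the effector that resides on mitochondria, had 7.24, 7.91 and 6.89 FPKM in si-NC and 8.96, 8.48 and 8.53 in si-STRIP2. The groups of BAK1 did not overlap, and the log2 fold change was 0.23 ± 0.080 (SE, edgeR adjusted p = 0.0133). The call of BAK1 was lost without si-NC replicate 3 (log2 fold change 0.19, edgeR adjusted p = 0.0566) and with DESeq2 (0.23, DESeq2 adjusted p = 0.0532). Across 19 alternatives, the adjusted p of BAK1 lay between 0.00881 and 0.708. The highest is from glmTreat, which tests for a change above 1.2-fold. Among the tests of any change the highest was the 0.0566 without si-NC replicate 3. The pseudogenes BAK1P1 and BAK1P2 held 0.258% as many counts as BAK1.

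For 7 of the 10 members the libraries of one group all lay on the same side of the other group in FPKM, against 58.6% of all tested genes. These were the called members other than BCL2, and MCL1.

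**Figure D2:**
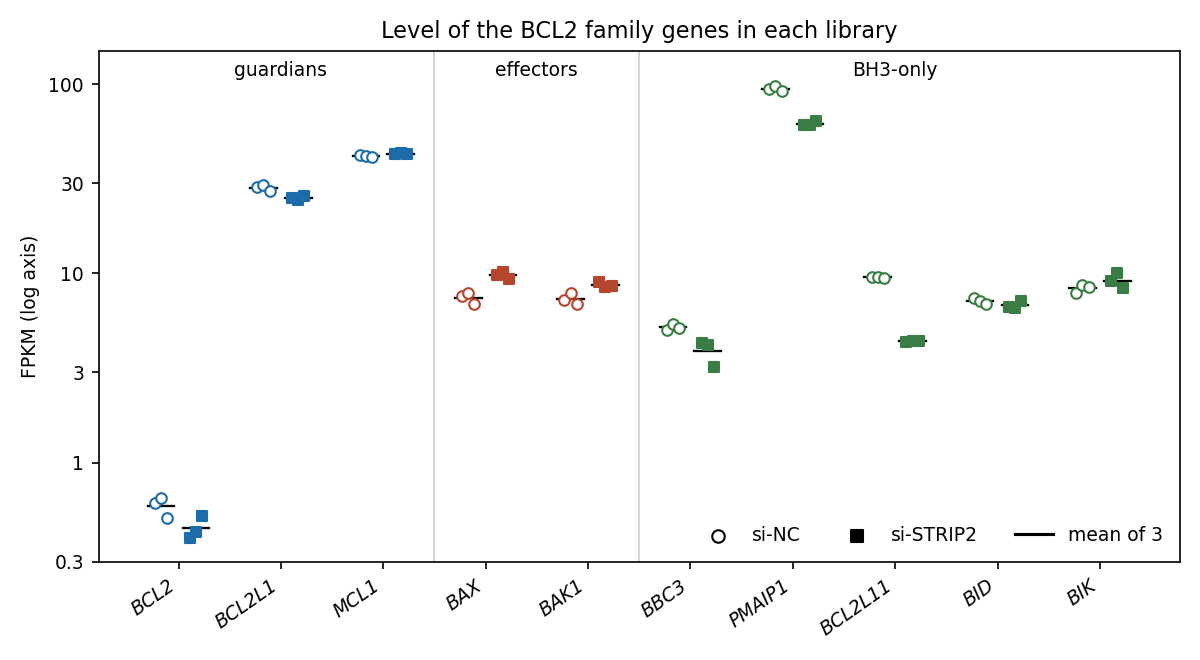
FPKM of the 10 genes in each of the 6 libraries on a log axis, with circles for si-NC, squares for si-STRIP2 and a line at the mean of 3. The span runs from BCL2 near 0.5 to PMAIP1 near 90 FPKM, and the 2 groups of BCL2L11 are tight and far apart.

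Levels were then compared between genes on the FPKM scale, which divides by a single exonic length per gene, whichever splice forms are expressed. The order of genes, the class sums and the ratios between genes depend on that length. BAX (2587 bases) had 426 counts in si-NC replicate 1 and BIK (951 bases) 162, yet BIK had the higher FPKM there. In si-NC the order by mean was PMAIP1 (94.6 FPKM), MCL1 (41.6), BCL2L1 (28.4) and BCL2L11 (9.55), and none of these overlapped the next. BIK (8.35), BAX (7.44), BAK1 (7.35) and BID (7.13) followed, each overlapping its neighbour in this order, so that their order is not set by these libraries. BBC3 (5.18) and BCL2 (0.590) came last, each below the one before without overlap. In si-STRIP2 the first 3 places were the same, BAX (9.78 FPKM) took the fourth place, and BCL2L11 (4.39) the eighth, below BID (6.78) and above BBC3 (3.88) without overlap. BAX, BIK and BAK1 overlapped in turn there.

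The classes were summed as a description, with no test, since the sum is a score over chosen members. The summed FPKM of the 5 BH3-only genes was 123.99, 128.56 and 121.89 in si-NC and 85.10, 86.02 and 86.54 in si-STRIP2. PMAIP1 made up 75.8% ± 0.361 of that sum in si-NC and 71.8% ± 1.32 in si-STRIP2, and BCL2L11 made up 7.66% ± 0.164 and 5.11% ± 0.0168 (SD, n = 3). The sum of the guardians was 70.6 ± 1.64 FPKM in si-NC and 68.2 ± 0.506 in si-STRIP2. Within it, MCL1 held 59.0% ± 0.607 and 62.7% ± 0.608, and BCL2 held 0.834% and 0.660%. The effectors summed to 14.8 ± 0.975 and 18.4 ± 0.495 FPKM, of which BAX was 50.3% ± 0.721 and 53.04% ± 1.37.

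Ratios of single members put the same values side by side. The ratio of PMAIP1 to MCL1, a pair that binds, was 2.24, 2.34 and 2.24 in si-NC and 1.43, 1.41 and 1.48 in si-STRIP2. BCL2L11 over MCL1 was 0.229 ± 0.00112 (SD, n = 3) in si-NC against 0.103 ± 0.000543 in si-STRIP2. The ratio of BAX to BCL2L1 went the other way, from 0.262 ± 0.00773 to 0.392 ± 0.0254. The often quoted ratio of BAX to BCL2 was 12.7 ± 0.775 and 22.1 ± 3.58, with BCL2 so low in these cells that small changes of it move the ratio. These are transcript ratios and say nothing of protein.

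**Figure D3:**
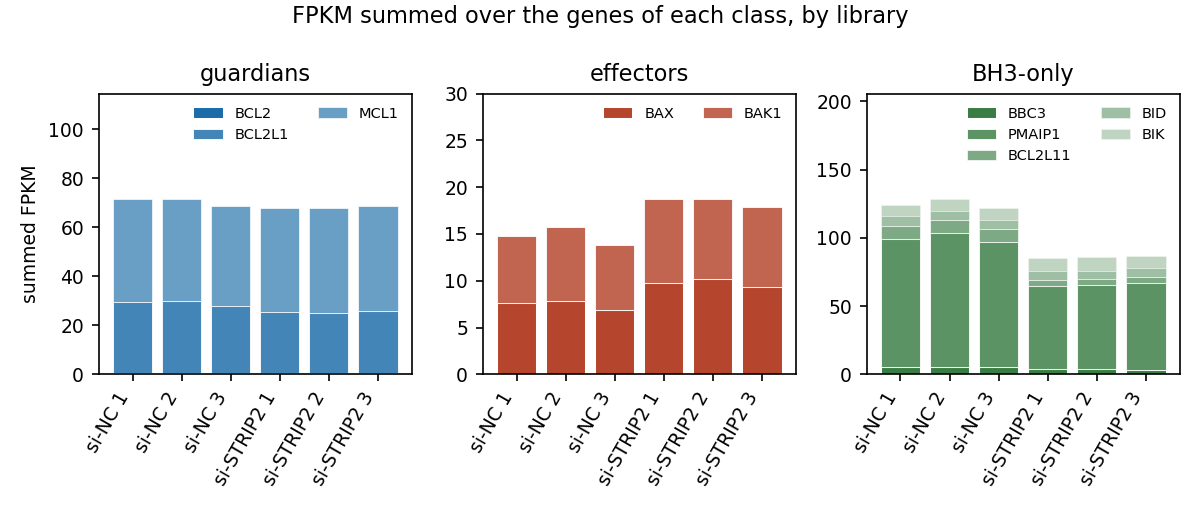
FPKM summed over the guardians, the effectors and the BH3-only genes in each of the 6 libraries, with each gene as a segment (BCL2 is too low to be seen). The BH3-only sum is 121.89 or more in si-NC and 86.54 or less in si-STRIP2, while the guardian sums differ little.

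Likeness to a member was measured as Pearson's r over the 6 libraries of log2 CPM (counts scaled to library totals adjusted by TMM factors). Searched were 12832 tested genes with a mean of at least 1 on that scale. The genes most like the members with the largest fall and the largest rise were looked up. For BCL2L11 they were CENPN (r = 1.000), ARG2 (1.000) and MIA2 (1.000), with log2 fold changes of -0.44, -2.18 and -0.92. For BAX they were AURKB, SUCLA2 and RFC2 (r = 0.998 for each), with log2 fold changes of 0.18, 0.25 and 0.29. The libraries form 2 groups, so r mostly follows the group difference: 1881 genes had r over 0.95 with BCL2L11 and 1005 with BAX. The measure gives no special partner to either.

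The sequence just upstream of the start of PMAIP1 and BCL2L11, the members with the largest falls, is shown because both are known to be set by transcription. RefSeq starts (GRCh38.p14) were matched for 8 of the 10 members, with several starts each for BCL2L1 and BID, of which any could hold a match. Searched in the 250 bases before the start, on both strands, were the AP-1 site TGANTCA, the CRE TGACGTCA and its core TGACG (which also lies within the full CRE), the ATF4-CEBP composite TGATGNAA, the E2F site TTTNNCGC, the GC box GGGCGG and the FOXO site TGTTTAC. Capitals mark matches of any of these on either strand. The window of PMAIP1 was ended where an annotated exon begins, at 202 bases (chr18:59899746-59899947, plus strand), and that of BCL2L11 is 250 bases (chr2:111120664-111120913, plus strand). The latter lies inside the span of the gene in the deposited table, which begins at a first exon farther upstream, and overlaps no annotated exon.
PMAIP1: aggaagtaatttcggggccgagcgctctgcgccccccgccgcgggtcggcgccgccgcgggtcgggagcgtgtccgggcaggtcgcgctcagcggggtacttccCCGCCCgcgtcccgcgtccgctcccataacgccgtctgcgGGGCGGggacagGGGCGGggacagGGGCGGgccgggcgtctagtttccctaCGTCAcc
BCL2L11: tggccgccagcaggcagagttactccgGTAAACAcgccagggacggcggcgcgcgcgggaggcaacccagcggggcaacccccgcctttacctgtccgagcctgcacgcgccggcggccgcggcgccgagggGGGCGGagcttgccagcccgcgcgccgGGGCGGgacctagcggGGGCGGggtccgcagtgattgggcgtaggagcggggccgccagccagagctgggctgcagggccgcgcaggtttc

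PMAIP1 held 4 GC boxes and 1 CRE core, which begins 55 bases before the RefSeq start. BCL2L11 held 3 GC boxes and 1 FOXO site, 223 bases before the start. The GC box occurs in 42.6% of all 35116 windows of this length, the CRE core in 21.2% and the FOXO site in 2.98%. Among the 8 matched members, the GC box was found in 5 and the CRE core in 4 (BAX, BCL2, BCL2L1 and PMAIP1). The BCL2 window begins inside an annotated exon of that gene. The AP-1 site was found in BBC3 alone (6.57% of all windows) and the E2F site in BCL2L1 alone (5.92%). Neither the full CRE (1.65%) nor the ATF4-CEBP composite (3.14%) was found in these windows. A match is a string of letters and not evidence of a bound factor.

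The rest of the pathway was described from 5 lists of apoptosis genes and a list of transcription factors that act on members' genes. In all 6 lists, 46 of 65 tested genes passed (19 higher, 27 lower), against 54.8% of all tested genes (27.8% higher, 27.0% lower). In the 5 lists without the transcription factors, 33 of 51 passed (64.7%, 15 higher and 18 lower). Among 13 other BCL2-type genes, 10 were tested, of which 3 rose, 2 fell and 5 did not pass. BCL2A1, BCL2L10 and BCL2L14 had too few counts. BCL2L13, a multi-domain relative also known as a mitophagy receptor, had the largest fall, from 14.1 ± 0.986 to 9.29 ± 0.0529 FPKM (log2 fold change -0.61, edgeR adjusted p = 4.63e-13). The mitophagy receptor BNIP3L fell by 0.38 on the log2 scale, while its paralog BNIP3 rose by 0.15. BMF, a BH3-only gene at low level, rose from 0.590 ± 0.0624 to 0.873 ± 0.162 FPKM (log2 fold change 0.56, edgeR adjusted p = 0.00435), so that not every BH3-only gene that passed was lower. BCL2L12 had a log2 fold change of 0.30, and the overlapping IRF3 held 141% as many counts. BCL2L2, which encodes the guardian BCL-W, had a log2 fold change of -0.011 (edgeR adjusted p = 0.882). On the other strand, HOMEZ overlaps BCL2L2 at 45.0% of its counts and PPP1R3E at 10.8%.

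Downstream of the mitochondria, 5 of the 11 genes of cytochrome c, the apoptosome and the caspases rose, 1 fell and 5 did not pass. Over all tested genes, 27.8% rose and 27.0% fell. The median log2 fold change of this list was 0.27. APAF1, the scaffold of the apoptosome, rose from 3.38 ± 0.275 to 5.88 ± 0.0265 FPKM (log2 fold change 0.80, edgeR adjusted p = 3.52e-13). CASP2, an initiator caspase, rose from 9.95 to 14.6 FPKM in the mean (log2 fold change 0.55, edgeR adjusted p = 7.26e-13). CYCS, the gene of cytochrome c, did not pass (log2 fold change -0.039, edgeR adjusted p = 0.449), nor did CASP9, the caspase of the apoptosome (-0.21, edgeR adjusted p = 0.0996).

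Of the 8 tested inhibitors of apoptosis and their antagonists, 4 fell and 2 rose, against 27.0% and 27.8% of all tested genes. XIAP, the direct inhibitor of caspases, fell from 14.9 ± 0.753 to 10.2 ± 0.0379 FPKM (log2 fold change -0.55, edgeR adjusted p = 3.61e-13). BIRC2, a ubiquitin ligase of the TNF receptor complex, fell by 0.47 on the log2 scale. DIABLO, the antagonist of XIAP that leaves mitochondria, fell by 0.50 on the log2 scale, with B3GNT4 overlapping it at 47.4% of its counts. BIRC5, the gene of survivin and a marker of dividing cells, rose by 0.19, and HTRA2 by 0.23, where the overlapping AUP1 held 522% as many counts.

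In the death receptor pathway, which reaches the family through BID, 7 of 12 tested genes fell and 2 rose. Over all tested genes, 27.0% fell and 27.8% rose. The median log2 fold change of this list was -0.25. TNFRSF10B, the TRAIL receptor DR5 and a known target of CHOP, fell from 72.0 ± 2.204 to 45.4 ± 1.35 FPKM (log2 fold change -0.67, edgeR adjusted p = 7.88e-16). CASP10 fell by 0.78 and FAS by 0.38 on the log2 scale, and genes overlapping FAS included STAMBPL1 at 61.4% of its counts. The decoy receptor TNFRSF10D rose from 14.2 ± 0.0451 to 19.99 ± 0.678 FPKM (log2 fold change 0.49, edgeR adjusted p = 1.46e-10). CASP8, which cuts BID, did not pass (0.033, edgeR adjusted p = 0.604).

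Among 10 genes that set the stability or placement of the proteins, 4 fell and 3 rose, against 27.0% and 27.8% of all tested genes. MARCHF5, a mitochondrial ubiquitin ligase that acts on the MCL1 and NOXA pair, fell by 0.41, GSK3B by 0.36 and USP9X, a deubiquitinase of MCL1, by 0.33 on the log2 scale. VDAC1, a channel of the outer membrane, rose from 84.6 ± 0.575 to 131 ± 1.37 FPKM (log2 fold change 0.63, edgeR adjusted p = 1.38e-15), whereas VDAC2, which recruits BAK1 and BAX, did not pass (0.090, edgeR adjusted p = 0.0578). DYNLL1, the dynein light chain that tethers BIM, rose by 0.35, as did BTRC by 0.35. NRAV overlaps DYNLL1 on the other strand and held 15.4% as many counts.

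Of 14 tested transcription factors known to act on genes of the family, 9 fell and 4 rose, against 27.0% and 27.8% of all tested genes. JUN, which acts on BCL2L11 in neurons, had the largest fall, with a log2 fold change of -2.60 (edgeR adjusted p = 3.11e-23). ATF3 went from 15.3 ± 0.255 to 7.93 ± 0.174 FPKM (log2 fold change -0.95), and DDIT3, which encodes CHOP, from 58.5 ± 1.32 to 34.0 ± 2.78 FPKM (log2 fold change -0.78), with MARS1 overlapping DDIT3 at 555% of its counts. ATF4, which acts upstream of both, rose by 0.25, E2F1 by 0.26 and MYB by 0.80. FOXO3 fell by 0.15 on the log2 scale and FOXO1 did not pass (0.16, edgeR adjusted p = 0.0923). Whether any of these factors bears on the members was not tested.

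**Figure D4:**
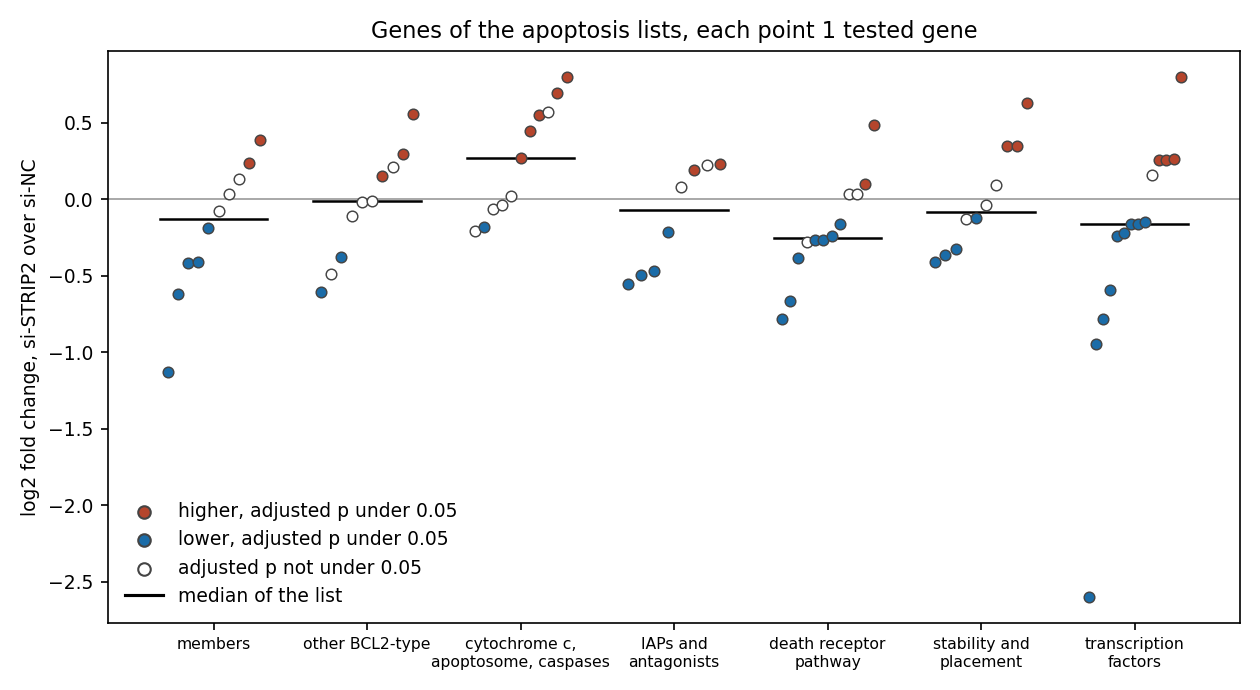
Log2 fold change, si-STRIP2 over si-NC, of every tested gene in the members and in 6 lists, 5 of apoptosis genes and 1 of transcription factors. Each point is 1 gene, red for higher, blue for lower and open where the test was not passed, with a line at each median. The list of cytochrome c, apoptosome and caspases has the highest median, 0.27, and the death receptor list the lowest, -0.25.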

How the data were processed

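Per the labels' protocols, total RNA was taken with TRIzol, poly(A) RNA was selected and directional libraries were made. The authors deposited 1 table with a raw count and an FPKM value per Ensembl gene and library. The submitters' processing notes list bcl2fastq 2.20.0.422, FastQC 0.10.1, cutadapt 1.9.1, HISAT2 2.2.1, HTSeq 0.6.1 and the build GRCh38.p13. The strand setting and annotation release are not given in the sources used here. The deposited FPKM values equal count over exonic length and column total within 0.005.

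Counts were filtered with filterByExpr (minimum count 10), scaled by TMM and tested with the quasi-likelihood F test of edgeR 4.0.16 in R 4.3.3, 2-sided, group as the only term, with Benjamini-Hochberg adjustment over 15687 genes. Standard errors are the absolute log2 fold change over the square root of F. DESeq2 1.42.0 and limma 3.58.1 served as alternatives. For the mitochondrial share of counts, a 2-sided exact permutation test gave p = 0.5 (3 against 3 allows no less than 0.1). Scripts were tested on simulated data.

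The members and the gene lists were chosen with earlier results of these data known. Named from each list are the called genes with up to 3 largest rises and falls, plus members of a list that did not pass, chosen after their values were seen. FOXO3 was also added then. Some genes and 1 motif of these lists are not reported here. Within groups, libraries correlated at 0.996 to 0.997 (log2 of FPKM + 1, across genes) and between groups at 0.983 to 0.985. Libraries of 1 group differed by more than counting noise in every pair (chi-square per degree of freedom 2.13 to 16.6).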

Additional observations from a re-analysis of the deposited data

How the results depend on the processing

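Each member was refitted under 19 alternatives (18 for BCL2), of which leaving out the mitochondrial genes was added after seeing the data. No member changed direction in any of them. BCL2L11 (log2 fold changes from -1.15 to -0.97) and PMAIP1 (-0.65 to -0.60) passed under all 19, and BCL2L1, BAX and BBC3 under all but the test against a 1.2-fold change. That test called 3723 genes, 21 list genes and 2 members, 2 lower and 0 higher, and did not call BCL2 (-0.41), BCL2L1 (-0.19), BAX (0.39), BAK1 (0.23) or BBC3 (-0.42). BAK1 was not called by DESeq2 (0.23), which left 1 member higher, as did an adjusted p under 0.01. BCL2 was not called by limma on log2(FPKM + 1) (-0.13) or on log2(FPKM + 0.1) (-0.33), both fitted for BCL2 on the genes of the count filter, and was not tested with at least 1 FPKM in 3 libraries. With 1 library left out, 6 or 7 members were called, 1 or 2 of them higher. Of all tested genes, those refits called from 7690 of 16043 (without si-NC replicate 1) to 8494 of 16031 (without si-NC replicate 3). The count of members is therefore no result about the family there either. BAK1 then ranged from 0.19 to 0.28 and BCL2 from -0.53 to -0.32. MCL1, BID and BIK passed under 0 alternatives. With the replicate number as a block, 7 members and 8293 genes were called. Same-numbered libraries did not deviate together (r = -0.086, -0.013 and -0.072), and 0 of 6 libraries correlated best with their own number. The class shares are the same on TPM by construction. BCL2 is limited by its depth of 94 to 167 counts.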
